A study of Rattus norvegicus with 12 samples.

Results

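The interferon regulatory factors are a family of DNA-binding proteins, and the genes described here were chosen by their Irf symbol in the array's annotation. The annotation gave 10 probe sets for 7 of these genes, out of 31042 probe sets and 14217 named genes in all. Irf2 had 3 probe sets and Irf9 had 2, Irf1, Irf3, Irf5, Irf7 and Irf8 had 1 each, and no probe set carried the name Irf4, so that gene was not analysed here. Probe sets were taken by symbol alone, but the members were chosen with earlier results of these data known. Total RNA of primary hepatocytes from Wistar rats was measured on 12 Affymetrix arrays. The cells had been freed from liver with collagenase, purified on Percoll and, on the day after isolation, given 250 U/ml of rat interferon alpha for 6 h or 3 h or left untreated for the same times. Each of the 4 groups (interferon alpha 6 h, interferon alpha 3 h, control 6 h, control 3 h) held 3 arrays, which the labels call biological replicates without naming separate rats, so the p-values measure the spread between these samples. Values are log2 levels per probe set, so that a difference of 1 is a fold of 2, and a level is compared only with the same probe set on other arrays.

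Irf proteins share a DNA-binding domain that recognises GAAA-containing elements. In the response to type I interferon, Irf9 joins Stat2 in a complex that binds the interferon-stimulated response element. The gamma-activated site is another interferon-responsive element, known from the promoter of Irf1. Irf3 and Irf7 are phosphorylated below sensors of viral nucleic acid and switch on type I interferon genes. Irf1 activates antigen presentation and antiviral genes, and Irf2 competes with it for the same elements. Irf5 and Irf8 are best known from macrophages, B cells and dendritic cells.

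The promoter sequences of Irf1, Irf7 and Irf9, whose levels were higher with interferon alpha, are printed with that of Irf3, whose level was not, because they show which of these elements stand next to each gene. Each line gives the 250 bases before the transcript start, 5′ to 3′ on the gene's own strand, from RefSeq on build GRCr8. Capitals mark matches to the core of the interferon-stimulated response element (GAAANNGAAA) or to the gamma-activated site (TTCNNNGAA), both searched on either strand.
Irf1, chr10:38417685-38417934, plus strand: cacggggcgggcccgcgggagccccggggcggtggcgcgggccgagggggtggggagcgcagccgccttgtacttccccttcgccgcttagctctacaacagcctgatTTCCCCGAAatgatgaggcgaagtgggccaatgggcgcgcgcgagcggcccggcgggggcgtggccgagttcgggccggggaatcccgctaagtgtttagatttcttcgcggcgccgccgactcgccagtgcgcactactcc
Irf7, chr1:205800024-205800273, minus strand: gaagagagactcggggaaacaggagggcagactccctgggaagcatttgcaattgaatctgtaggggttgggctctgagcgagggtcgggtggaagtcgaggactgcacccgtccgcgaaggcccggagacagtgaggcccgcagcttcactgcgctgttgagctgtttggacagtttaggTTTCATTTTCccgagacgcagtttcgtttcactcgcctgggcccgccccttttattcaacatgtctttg
Irf9, chr15:33065586-33065835, plus strand: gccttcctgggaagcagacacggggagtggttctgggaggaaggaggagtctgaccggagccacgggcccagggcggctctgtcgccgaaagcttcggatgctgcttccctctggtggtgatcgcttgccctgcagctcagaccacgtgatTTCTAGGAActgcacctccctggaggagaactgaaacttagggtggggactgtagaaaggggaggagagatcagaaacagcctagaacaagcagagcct
Irf3, chr1:104616358-104616607, plus strand: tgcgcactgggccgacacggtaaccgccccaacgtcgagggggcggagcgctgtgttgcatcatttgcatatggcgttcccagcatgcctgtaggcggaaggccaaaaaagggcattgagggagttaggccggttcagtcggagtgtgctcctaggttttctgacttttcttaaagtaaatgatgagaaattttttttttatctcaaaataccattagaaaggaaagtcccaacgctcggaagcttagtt

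The search covered the 250 bases before and 50 bases after the start, and 7 Irf genes had an entry in the promoter table. Irf7 held 1 response element core, lying on the opposite strand at positions -69 to -60 from the start and reading TTTCATTTTC on the gene's own strand. Of all 33469 rat promoters of this length in the table, 3.92% held such a core. Irf1 held 1 gamma-activated site, TTCCCCGAA, at -142 to -134, and Irf9 held 1, TTCTAGGAA, at -99 to -91. Irf8 held 2 gamma-activated sites, at -180 to -172 and -161 to -153. The gamma-activated site was found in 8.87% of all promoters and both motifs in 0.514%. No match to either motif was found in this window for Irf3, Irf5 or Irf4, no match overlapped another, and a match is a run of letters, not a binding event. The map of motif matches shows these positions side by side.

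**Figure D1:**
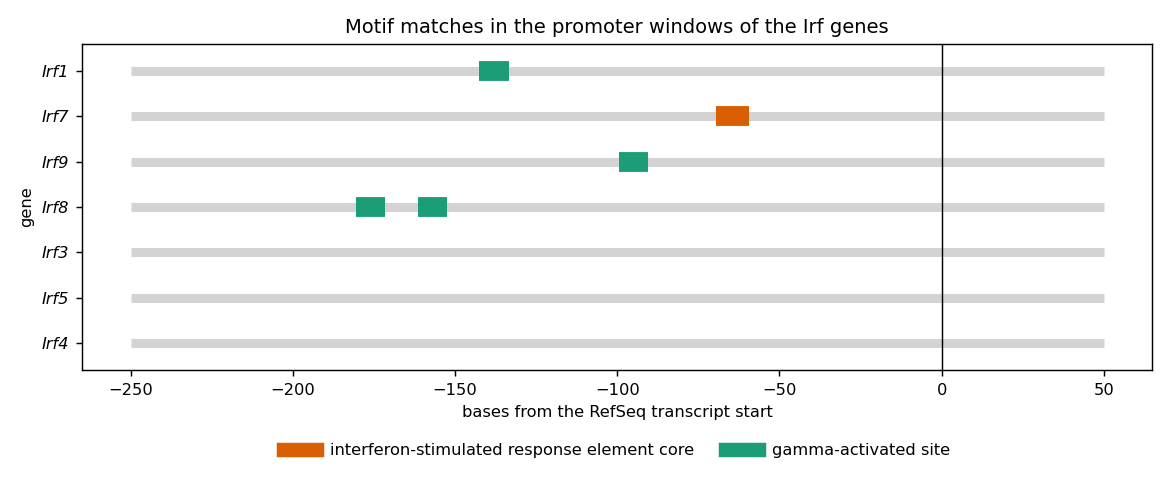
Matches to the 2 motifs in the promoter windows of the 7 genes with an entry, by distance in bases from the RefSeq transcript start (horizontal axis), one gene per row. Irf7 alone among the 7 holds a response element core, and Irf1, Irf9 and Irf8 hold gamma-activated sites.

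The arrays were alike in scale, with medians of 5.16 to 5.21 log2 and correlations between arrays of 0.979 to 0.997. Hepatocyte markers were high, with 7 of 8 measured and a mean of 12.9 to 13.2 log2 on every array. Of the 11 markers of Kupffer cells and macrophages, 9 were measured, and 7 of these (Cd163, Clec4f, C1qa, C1qb, C1qc, Csf1r and Cd14) were highest on the replicate 1 array in all 4 groups. The mean over the 9 was 6.67 to 6.78 log2 on replicate 1 arrays and 5.43 to 5.89 on the others, while the macrophage marker Adgre1 lay below the lower quartile on all 12 arrays. Replicate 1 also had the higher mean of liver endothelial markers, 4.30 to 4.66 log2 against 3.76 to 4.03 on the others, and of stellate cell markers, 4.24 to 4.36 against 3.99 to 4.17. Only 2 of 4 endothelial markers (Pecam1 and Lyve1) and 2 of 5 stellate markers (Col3a1 and Dcn) were highest on replicate 1 in all 4 groups. Each of these lay below the lower quartile on 8 or 9 of the 12 arrays. The summed linear level of the Kupffer cell and macrophage list was 3746 to 5526 with interferon alpha and 3910 to 5549 in controls at 6 h, and 3460 to 5122 with interferon alpha and 3524 to 5109 in controls at 3 h. Most of this sum was Cd14, with a mean of 11.9 log2, as the next brightest marker, Cd68, had a mean of 6.95. The sum therefore says little about the other markers of the list. In cultures that hold more than 1 cell type, fewer cells of a type and less RNA per cell cannot be told apart. Arrays with the same replicate number also deviated together over all probe sets, so a fit with the replicate number as a block (the blocked fit) is given wherever it changes a call.

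Irf7, Irf9 and Irf1 were the members with higher levels in interferon alpha cultures, at both times and without overlap with the controls. The share of all probe sets without such overlap is not given here, so the lack of overlap is a description. After 6 h, Irf7 rose 8.62-fold and Irf9 rose 2.30-fold, and Irf1 was 4.66-fold above control, past the threshold in the blocked fit. The Irf2, Irf3, Irf5 and Irf8 levels overlapped those of their controls at both times, and none of them passed. At 6 h limma called 3 of the 10 probe sets higher and none lower at an adjusted p under 0.05, where the share called over all probe sets was 0.387%. In the blocked fit 4 of the 10 were called, all higher, against 1.10% of all probe sets. At 3 h limma called 0 of the 10, where 0.00644% of all probe sets were called. At an unadjusted p under 0.05 there were 4 of the 10 at 3 h, beside 915 of all 31042. The blocked fit called 2 at 3 h, Irf1 and the second probe set of Irf9, against 0.0966% of all probe sets, and with the block set within each time it called 0 of the 10 at 3 h. Taking the brightest probe set of each gene, the median change of the 7 genes was 0.26 log2 at 6 h and 0.18 at 3 h, beside -0.02 at both times over all named genes.

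**Figure D2:**
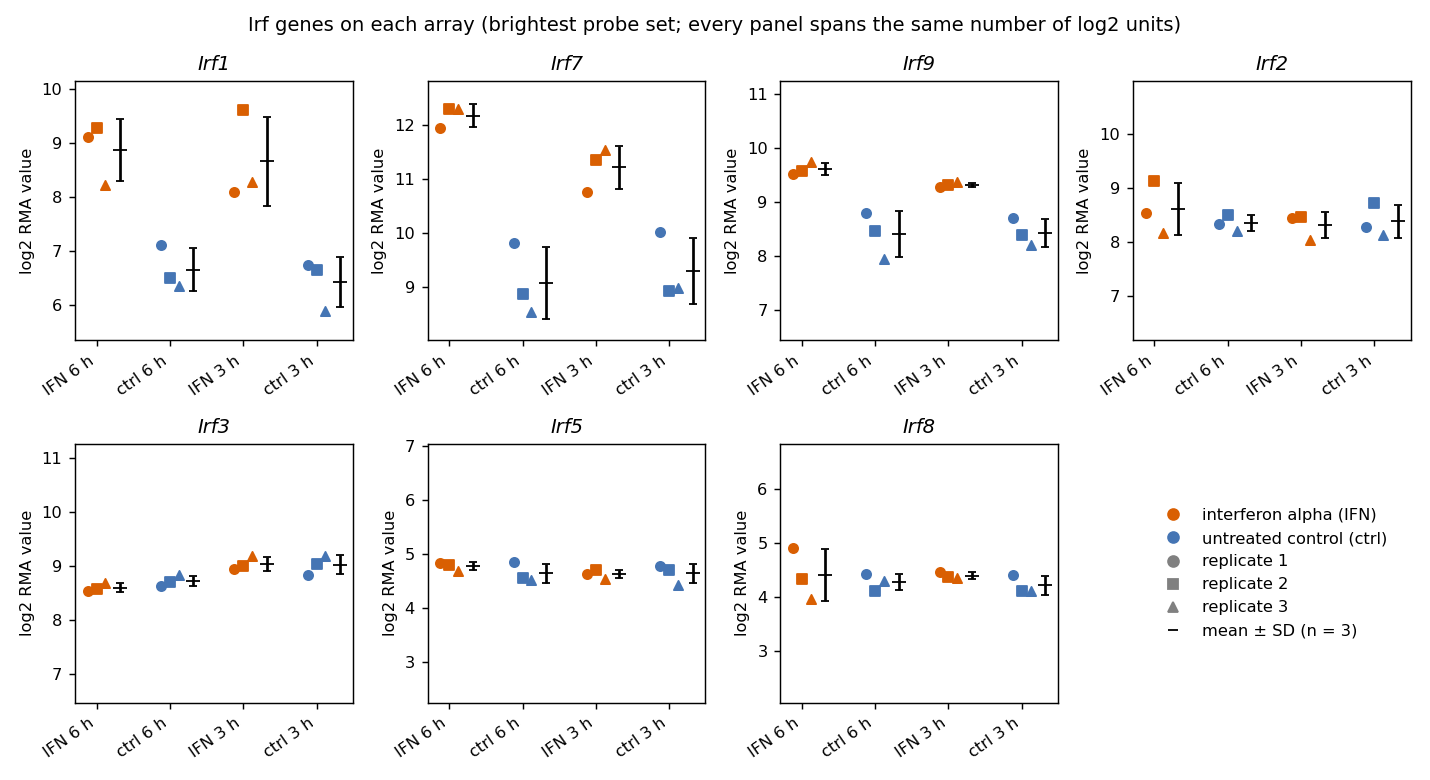
Log2 level of the brightest probe set of each Irf gene on each array (vertical axis) in the 4 groups (horizontal axis), with interferon alpha in orange, untreated control in blue, marker shapes for replicate numbers and bars for mean ± SD (n = 3). Interferon alpha and control arrays stand apart for Irf1, Irf7 and Irf9 and overlap for Irf2, Irf3, Irf5 and Irf8.

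Irf9 is the DNA-binding member of the complex that carries the type I interferon signal to the nucleus. At 6 h its brightest probe set read 9.52, 9.57 and 9.73 log2 in interferon alpha cultures and 8.79, 8.47 and 7.94 in controls. At 3 h it read 9.28, 9.31 and 9.36 log2 in interferon alpha cultures and 8.70, 8.38 and 8.20 in controls. The treated arrays lay close together at each time, all above every control, and the controls were highest in replicate 1 at both times. The log2 change at 6 h was 1.20 ± 0.19 (SE), a 2.30-fold rise with a 95% interval of 1.72 to 3.08 (limma, adjusted p = 0.0209). At 3 h it was 0.89 ± 0.19, or 1.85-fold, and did not pass in limma (adjusted p = 0.535, and 0.114 in the blocked fit). The second probe set of Irf9 gave 1.31 ± 0.17 at 6 h (2.49-fold, limma adjusted p = 0.00507). At 3 h the second probe set gave 0.85 ± 0.17 (1.80-fold, limma adjusted p = 0.392, 0.0499 in the blocked fit and 0.155 with the block within each time). That blocked call was lost without replicate 2 (adjusted p = 0.963) or replicate 3 (0.808). The 2 probe sets therefore had the same direction and similar size at each time. The 6 h call of the brightest one was lost when an interferon alpha 6 h array was left out, with adjusted p of 0.0642 without replicate 1, 0.103 without replicate 2 and 0.0957 without replicate 3. Leaving out replicate 2 of the 6 h controls also ended it (adjusted p = 0.0848), while the second probe set kept its call in all 12 fits with 1 array left out.

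Irf7, the factor that amplifies type I interferon production, had the largest 6 h change of the 7 genes. At 6 h it read 11.95, 12.30 and 12.31 log2 in interferon alpha cultures and 9.82, 8.88 and 8.54 in controls. At 3 h it read 10.77, 11.36 and 11.54 log2 in interferon alpha cultures and 10.02, 8.93 and 8.99 in controls. Treated and control arrays did not overlap at either time, and replicate 1 had the lowest treated value and the highest control value at both times. The log2 change at 6 h was 3.11 ± 0.36, an 8.62-fold rise with a 95% interval of 4.98 to 14.9 (limma, adjusted p = 0.00325). It stayed called in all 12 fits with 1 array left out, with adjusted p between 0.00341 and 0.0243. At 3 h the change was 1.91 ± 0.36, or 3.77-fold, which did not pass (limma, adjusted p = 0.322, and 0.0901 in the blocked fit). In the order of group means, interferon alpha 6 h stood at 12.18 ± 0.21 log2 (SD, n = 3) and interferon alpha 3 h at 11.23 ± 0.40, above control 3 h at 9.31 ± 0.61 and control 6 h at 9.08 ± 0.66. The 2 treated groups did not overlap, but their difference of 0.96 ± 0.36 did not pass in limma (adjusted p = 0.339, and 0.107 in the blocked fit), and the 2 control groups overlapped.

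Irf1, an early gene of interferon responses, had changes of similar size at 6 h and 3 h. At 6 h it read 9.11, 9.28 and 8.22 log2 in interferon alpha cultures and 7.10, 6.50 and 6.35 in controls. At 3 h it read 8.09, 9.61 and 8.27 log2 in interferon alpha cultures and 6.73, 6.64 and 5.89 in controls. Every treated array was above every control, and the spread between treated arrays was wide, with replicate 2 highest at both times. The log2 change at 6 h was 2.22 ± 0.42, or 4.66-fold with a 95% interval of 2.46 to 8.81. It missed the threshold in limma (adjusted p = 0.0608) and passed in the blocked fit (adjusted p = 0.00203). At 3 h the change was 2.24 ± 0.42, or 4.72-fold with an interval of 2.49 to 8.93 (limma, adjusted p = 0.322, and 0.0218 in the blocked fit). With the block set within each time, adjusted p was 0.00627 at 6 h and 0.0547 at 3 h. When replicate 2 of the treated 3 h arrays, the highest Irf1 value of all, was left out, the fit without a block called the 6 h change as well (adjusted p = 0.0151). In the blocked fit the 6 h call was lost without replicate 3 (adjusted p = 0.0793), and the 3 h call without replicate 2 (0.426) or replicate 3 (1.00).

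**Figure D3:**
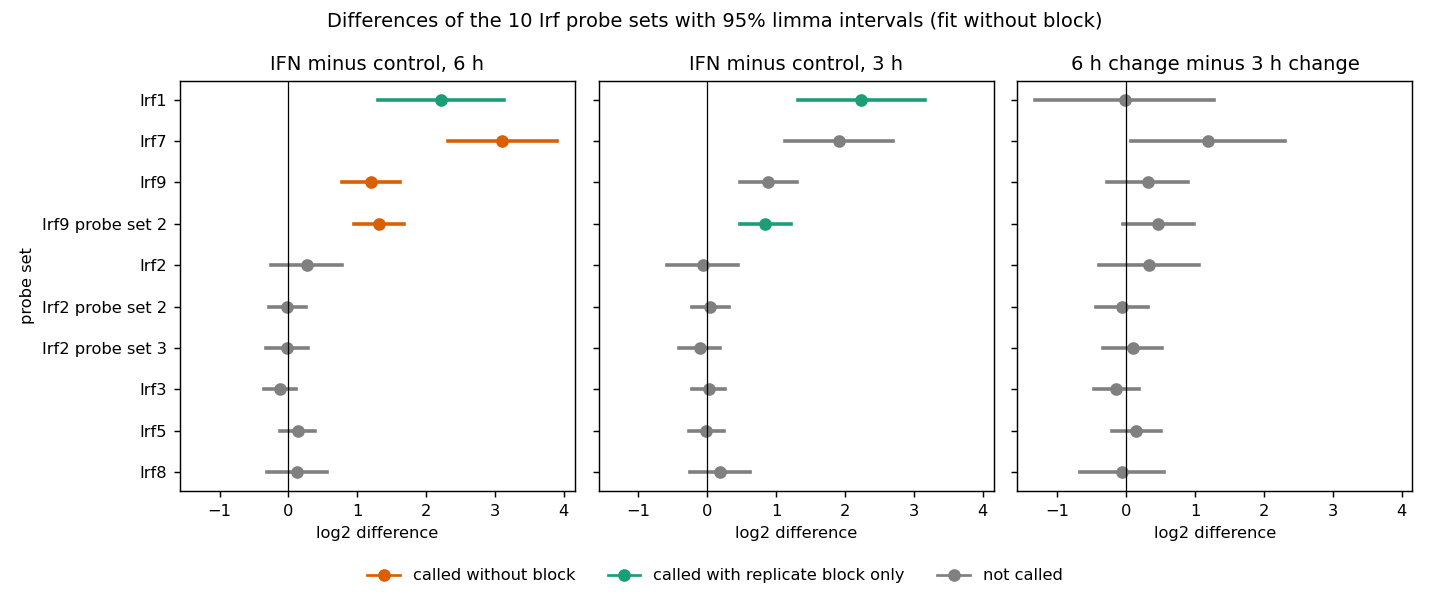
Log2 difference with its 95% limma interval (horizontal axis) for each of the 10 Irf probe sets (rows): the interferon effect at 6 h, the interferon effect at 3 h, and the 6 h change minus the 3 h change. Orange marks calls without a block, green those made only in the blocked fit. The intervals of Irf1, Irf7 and both Irf9 probe sets lie above 0 at both times, and in the right panel only that of Irf7 does.

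Whether a change was kept or grew was read from the 6 h change minus the 3 h change. For Irf7 this difference was 1.19 ± 0.51 log2, with a 95% interval of 0.08 to 2.31, so the interval lay above 0. After adjustment over all probe sets it did not pass in limma (unadjusted p = 0.0383, adjusted p = 1.00). For Irf1 the difference was -0.02 ± 0.59, with an interval of -1.32 to 1.28, which leaves room for a sizeable gain or loss. For Irf9 it was 0.31 ± 0.27, with an interval of -0.28 to 0.91, and for its second probe set 0.47 ± 0.23, with an interval of -0.05 to 0.98. In the blocked fit the interval of the second probe set ran from 0.06 to 0.88 (limma, unadjusted p = 0.0292, adjusted p = 0.969). The interval thus lay above 0 for Irf7 in both fits and for the second Irf9 probe set in the blocked fit alone, and no member was called. Irf1 and the brightest Irf9 probe set were not told apart from a sustained change. Over the whole array 0% of probe sets was called for this difference, in either fit, and 673 had an unadjusted p under 0.05 without the block and 1466 with it.

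Pairing the arrays by replicate number gave upward gains in all 3 replicates for Irf7 and for both Irf9 probe sets, and gains of mixed sign for Irf1. The Irf7 change at 6 h was 2.13, 3.42 and 3.77 log2 in replicates 1, 2 and 3, and at 3 h it was 0.76, 2.43 and 2.55. The gain was 1.38, 0.98 and 1.22. The Irf1 change at 6 h was 2.01, 2.78 and 1.87, and at 3 h it was 1.36, 2.97 and 2.38. Its gain was 0.65, -0.19 and -0.51, so that 1 replicate moved up and the other two moved down. The Irf9 change at 6 h was 0.72, 1.10 and 1.79 and at 3 h 0.58, 0.93 and 1.16, a gain of 0.15, 0.17 and 0.63. Its second probe set gained 0.37, 0.33 and 0.70. The Irf7 gain exceeded the Irf1 gain in each replicate, by 0.73, 1.17 and 1.74 log2, a mean of 1.21 ± 0.51 (SD, n = 3). The exact sign-flip permutation test, two-sided, gave p = 0.25, the smallest that 3 pairs allow. With so few pairs this test could not pass the threshold whatever the values, so it decides nothing here. The members were also chosen with earlier results of these data known, so the differences between their gains are descriptions. The Irf9 gain minus the Irf1 gain was -0.50, 0.36 and 1.14, a mean of 0.33 ± 0.82 (SD, n = 3, exact sign-flip permutation p = 0.75). Replicate 1, whose means of Kupffer cell, endothelial and stellate cell markers were highest, had the smallest change of Irf7 and Irf9 at both times. Without replicate 1, the blocked fit gave Irf7 a change of 3.60 at 6 h and 2.49 at 3 h and Irf9 one of 1.44 at 6 h and 1.04 at 3 h, all called. The Irf7 change at 3 h was not called in the blocked fit without replicate 2 (1.65, limma adjusted p = 0.963) or without replicate 3 (1.59, adjusted p = 1.00). The Irf9 change at 3 h was likewise not called without replicate 2 (0.87, limma adjusted p = 0.963) or without replicate 3 (0.75, adjusted p = 0.889). The part of those markers in the result was not tested.

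**Figure D4:**
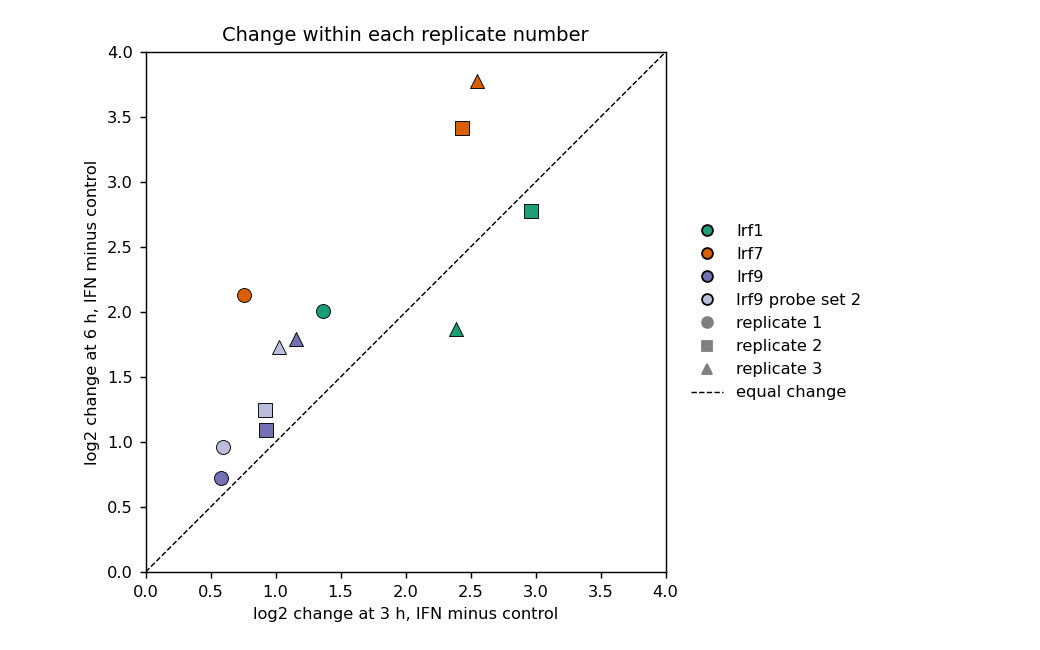
Log2 change with interferon alpha at 6 h (vertical axis) against that at 3 h (horizontal axis) within each replicate number, for Irf1, Irf7 and the 2 probe sets of Irf9. Points above the dashed line had the larger change at 6 h, as all points of Irf7 and of both Irf9 probe sets did, while Irf1 had 1 point above the line and the others below.

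Irf2, Irf3, Irf5 and Irf8 gave no call with interferon alpha in either fit. Irf2, the competitor of Irf1, read 8.52, 9.12 and 8.17 log2 with interferon alpha at 6 h and 8.33, 8.49 and 8.19 in controls. This was a change of 0.26 ± 0.23 with an interval of -0.25 to 0.78. In the blocked fit the interval ran from 0.005 to 0.52, and Irf2 was not called (limma, unadjusted p = 0.0461, adjusted p = 0.596). At 3 h it read 8.43, 8.46 and 8.03 with interferon alpha and 8.28, 8.72 and 8.13 in controls, a change of -0.07 ± 0.23. Its other 2 probe sets read only 4.16 to 4.93 log2 on every array, with changes of -0.11 to 0.04. Irf5 read 4.70 to 4.83 with interferon alpha and 4.53 to 4.86 in controls at 6 h, a change of 0.13 ± 0.11, and -0.01 ± 0.11 at 3 h. Irf8 read 3.96 to 4.91 with interferon alpha and 4.12 to 4.42 in controls at 6 h, a change of 0.13 ± 0.20, and 0.18 ± 0.20 at 3 h. Irf5 and Irf8 lay above the lower quartile of their array, which was 3.84 to 3.93, but below the median on all 12 arrays. The Irf8 value of replicate 1 was the highest of its group in all 4 groups, as were 7 of the Kupffer cell markers. The part of those markers in Irf8 was not tested.

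Irf3, the sensor-activated factor that most cells hold before infection, was lower at 6 h than at 3 h, a difference that passed only in the blocked fit, and gave no call with interferon alpha. In interferon alpha cultures it read 8.53, 8.57 and 8.69 log2 at 6 h and 8.94, 9.00 and 9.18 at 3 h. In controls it read 8.63, 8.71 and 8.83 at 6 h and 8.84, 9.03 and 9.19 at 3 h. The 6 h arrays lay below the 3 h arrays with and without interferon alpha, with no overlap, a pattern whose share over all probe sets is not given here. The difference, 6 h minus 3 h, was -0.44 ± 0.11 with interferon alpha and -0.30 ± 0.11 in controls. Neither passed in limma (adjusted p = 0.114 with interferon alpha and 0.357 in controls), and both passed in the blocked fit (0.00350 and 0.0239 in that order). In the blocked fit the control call was lost without any 1 of the replicate numbers (adjusted p of 0.0970 without replicate 1, 0.171 without replicate 2 and 0.200 without replicate 3). The call with interferon alpha was lost without replicate 2 (0.0597) or replicate 3 (0.0684). Irf3 was 1 of the 10 probe sets called for time in each of these blocked fits, where 9.68% of all probe sets were called with interferon alpha and 8.15% in controls. The share of Irf probe sets called was thus near that of all probe sets. Without the block 0 of the 10 were called for time, beside 0.387% of all probe sets with interferon alpha and 0.190% in controls. At an unadjusted p under 0.05 there were 2 of the 10 with interferon alpha, beside 3282 of all 31042, and 1 of the 10 in controls, beside 3147 of all, so the count in controls was near the background. The interferon change of Irf3 was -0.12 ± 0.11 at 6 h and 0.02 ± 0.11 at 3 h, and its treated and control arrays overlapped at both times.

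The genes with the level pattern most like that of Irf7 over the 12 arrays were Isg15 (Pearson r = 0.994), the ubiquitin-like interferon-induced modifier, Ifit3 (0.987), Ifi44 (0.985), the peptide transporter Tap1 (0.981) and the RNA sensor Rig1 (0.980), out of 9267 genes compared. For Irf9 they were Irf7 itself (0.977), Ifgga2l1 (0.964), the ISG15-removing protease Usp18 (0.963), Ifit3 (0.959) and Mitd1 (0.959). For Irf1 they were Arhgap32 (0.956), the chemokine Cxcl10 (0.947), Ifi44 (0.944), Ifgga2l1 (0.943) and Dtx3l (0.941). These arrays share 4 groups, so r describes mostly the difference between treated and control cultures. On the deviations from group means, Irf7 and Irf9 correlated at 0.842, Irf1 and Irf7 at 0.424 and Irf1 and Irf9 at 0.313. Over all pairs of the 7 genes these values ran from -0.836 (Irf3 and Irf5) to 0.842, and the uncalled Irf5 reached 0.735 with Irf1. Arrays with the same replicate number deviated together over all probe sets, so such values are not particular to these members.

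Among the genes that act around the Irf proteins, no receptor or kinase gene passed the test with interferon alpha. Those that did were sensors, Stat2, Usp18, target genes and, in the blocked fit alone, the adaptor Myd88. Of 10 genes for the receptors, kinases and Stat proteins, 9 were measured, and 1 rose at 6 h in both fits: Stat2, the partner of Irf9, by 1.51 ± 0.21 log2 (limma, adjusted p = 0.00981), with 0.57 ± 0.21 at 3 h, where none passed. The median of the list was -0.01 at 6 h and -0.02 at 3 h. For kinases, adaptors and sensors that activate Irf3, Irf5 and Irf7, 27 symbols were listed, some of them older and newer names of the same gene. Of these genes 19 were measured, 2 rose at 6 h and none fell. These were the RNA sensors Ifih1, by 2.14 ± 0.25 (limma, adjusted p = 0.00325), and Rig1, by 1.77 ± 0.20 (the same adjusted p). The adaptor Myd88 had a change of 0.64 ± 0.21 at 6 h in the fit without a block. It passed in the blocked fit alone (limma, adjusted p = 0.741 without and 0.0121 with the block). The list median was 0.05 at 6 h and 0.00 at 3 h, and none of the 19 passed at 3 h in either fit. Over all probe sets the share called was 0.387% at 6 h and 0.00644% at 3 h. In the blocked fit these shares were 1.10% and 0.0966%.

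Of 17 genes that restrain Irf activity, 14 were measured and 1 rose at 6 h in both fits, Usp18, by 2.21 ± 0.35 log2 (limma, adjusted p = 0.0199). None passed at 3 h, and the list median was 0.08 at 6 h and -0.02 at 3 h. The share called over all probe sets at 6 h was 0.387%, and 1.10% in the blocked fit. Of 16 partners and cofactors of Irf proteins, 12 were measured and none passed at either time in either fit. The 2 brightest were the NF-kB subunit Rela, with 0.08 ± 0.19 at 6 h and -0.10 ± 0.19 at 3 h, and the acetyltransferase Kat2b, with 0.13 ± 0.22 at 6 h and 0.03 ± 0.22 at 3 h. The list median was 0.05 at 6 h and -0.10 at 3 h.

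Of 36 genes known as direct targets of Irf proteins, 32 were measured, and 9 rose at 6 h and 1 at 3 h, with none lower. In the blocked fit 18 rose at 6 h and 4 at 3 h (Cxcl10, Ifit3, Rsad2 and Ifit2). Over all probe sets the share called was 0.387% at 6 h and 0.00644% at 3 h, and 1.10% and 0.0966% in the blocked fit. The list median was 0.84 log2 at 6 h and 0.28 at 3 h, beside -0.02 at both times over all named genes. The antiviral gene Ifit3 rose at 6 h by 4.49 ± 0.50 (limma, adjusted p = 0.00325), with 3.09 at 3 h. The chemokine Cxcl10 rose at both times, by 4.36 ± 0.52 at 6 h (adjusted p = 0.00365) and 4.98 ± 0.52 at 3 h (adjusted p = 0.0372, limma). The dynamin-like GTPase Mx1 rose at 6 h by 4.33 ± 0.51 (limma, adjusted p = 0.00365), with 1.91 at 3 h. Ifit2 rose by 3.27 ± 0.34 at 6 h (limma, adjusted p = 0.00300) and Rsad2, the antiviral enzyme viperin, by 3.14 ± 0.34 (adjusted p = 0.00312). The guanylate-binding protein gene Gbp2 had a change of 3.43 ± 1.06 at 6 h and passed in the blocked fit alone (limma, adjusted p = 0.660 without and 0.000281 with the block).

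**Figure D5:**
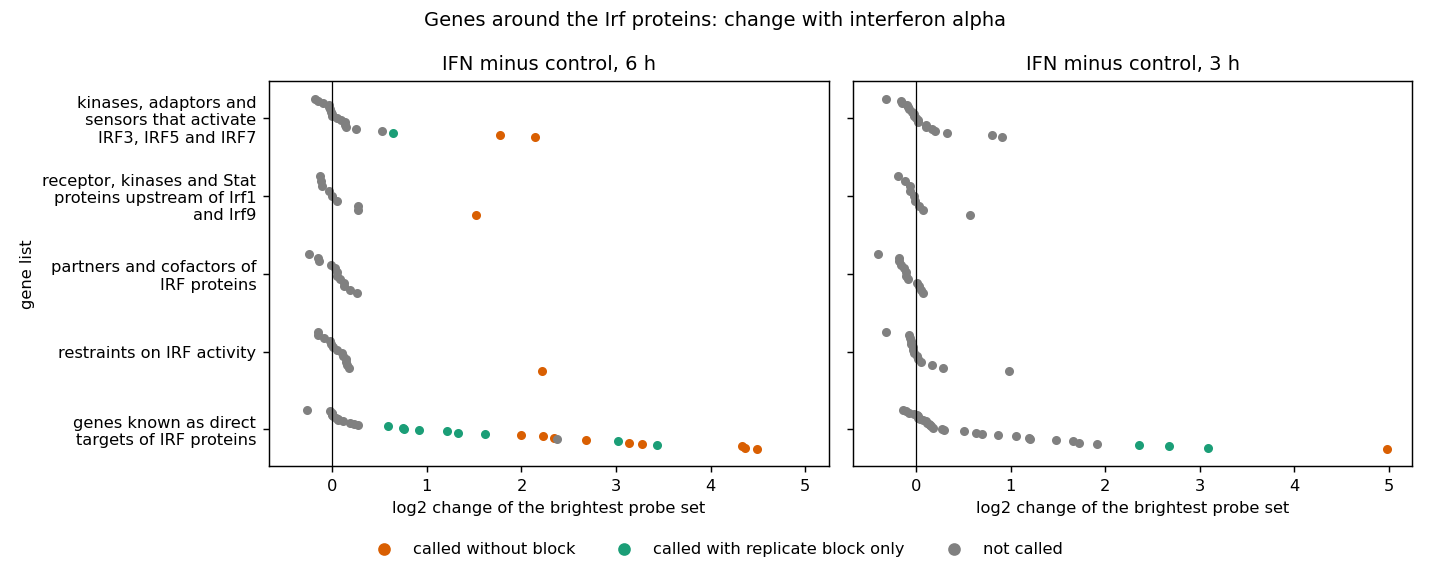
Log2 change with interferon alpha (horizontal axis) at 6 h and at 3 h for every measured gene of the 5 lists (rows), by its brightest probe set. Orange marks genes called without a block, green those called only in the blocked fit. The direct targets spread to the right, to 4.49 at 6 h and 4.98 at 3 h, while partners and cofactors stay between -0.40 and 0.26.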

How the data were processed

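Total RNA from 12 cultures was labelled and hybridised to Affymetrix arrays, as the labels' protocols describe. Per the submitters' processing notes, which name RMA, affy and R 2.10.0, the authors deposited log2 RMA levels for each probe set. The sources used here do not give the probe set definition. Because RMA equalizes the arrays' distributions, a change common to most transcripts would be hidden.

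The 57 control probe sets were left out. Of the 31042 tested, 20826 had 1 gene symbol in the platform annotation, 436 had several and 9780 were not listed; the last 2 kinds are not named. By Entrez identifier 20758 matched RefSeq genes of GRCr8, and 0 symbols changed. A gene stands on its brightest probe set, and 4525 genes had several. Promoters came from RefSeq on GRCr8.

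Group differences were estimated with limma 3.58.1 under R 4.3.3 by lmFit and eBayes in 1 fit of all 12 arrays with 4 group means and 8 residual degrees of freedom, two-sided, with Benjamini-Hochberg adjustment over 31042 probe sets per comparison and a threshold of 0.05. The fit was tested on simulated data with independent noise on every array. The simulation held no effect of the replicate number, so it does not bear on the choice between the fits. Precision is limited by having only 3 arrays per group.

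Arrays with the same replicate number correlated in their deviations from group means at 0.651 to 0.829 within a time and 0.479 to 0.736 between times, while other pairs lay between -0.562 and -0.0747, so the numbers pair the arrays. The blocked fit adds the replicate number as a factor and has 6 residual degrees of freedom, or 4 with the block within each time.

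Members and gene lists were chosen with earlier results of these data known, so list counts are descriptions and carry no set test. Some items are not reported here. From each list at most 6 genes that passed with interferon alpha in either fit are named, taken by the size of the 6 h change, or the 2 brightest where none was called. Similar genes are the 5 with the highest Pearson r among genes at or above the median level. Alternatives were the block, the arrays entering the fit, limma-trend, a filter on dim probe sets, median centring, the mean of a gene's probe sets and leaving out arrays.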

Additional observations from a re-analysis of the deposited data

How the results depend on the processing

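The number of Irf probe sets called with interferon alpha at 6 h was 3, stayed at 3 or 4 under the block, limma-trend, the filter on dim probe sets and median centring, and 1 (Irf7) when only the 6 h arrays entered the fit; there the adjusted p was 0.188 for Irf9 and 0.0786 for its second probe set. At 3 h the count of 0 became 2 with the replicate block and 0 when the block was set per time. With the block and all arrays of 1 replicate number left out, an alternative chosen after seeing the data, it was 4 without replicate 1 and 0 without replicate 2 or replicate 3. The count for time was 1 with the replicate block in controls and with interferon alpha, and 2 with interferon alpha when replicate 1 was also left out, against 0 without replicate 2 or replicate 3; in controls it was 0 without any 1 of the numbers. The block within each time could not be fitted for comparisons between times. Irf1 at 6 h was called with limma-trend (adjusted p = 0.0497) and with the filter on dim probe sets (0.0432), and Irf9 at 6 h lost its call in the blocked fit without replicate 2 (0.118). Irf7 at 6 h was called under every alternative run, with adjusted p up to 0.0478.

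Of 622 alternative values for single members, 574 kept direction and side of the threshold, 17 newly passed, 7 no longer passed and 24 changed sign. The sign changes were of uncalled values, with the following ranges over fits with 1 array left out: at 3 h, Irf2 ran from -0.19 to 0.11, Irf3 from -0.071 to 0.11 and Irf5 from -0.12 to 0.056, and at 6 h Irf8 from -0.13 to 0.35. For the 6 h change minus the 3 h change, Irf1 ran from -0.30 to 0.46, and was 0.067 and 0.23 in the blocked fit without replicate 2 and without replicate 3, and Irf8 ran from -0.31 to 0.16. For time in controls, Irf1 ran from -0.035 to 0.39, Irf7 from -0.61 to 0.12 and Irf9 from -0.22 to 0.21, with 0.093 in the blocked fit without replicate 3. For time with interferon alpha, Irf1 ran from -0.068 to 0.69, with -0.19 in the blocked fit without replicate 1. The Irf9 gain minus the Irf1 gain ran from -0.072 to 0.75 with 1 replicate number left out, and the Irf7 gain minus the Irf1 gain from 0.95 to 1.46. The causes were not tested.

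Irf5, Irf8 and the dim Irf2 probe sets lay near the low end of signal, and with 3 arrays per group the gain of Irf1 or Irf9 between times was bounded only by the wide intervals given above.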
